A study of Mus musculus with 9 samples.

Results

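The genes described here encode the matrix metalloproteases, the ADAMTS proteases with their ADAMTS-like relatives, and the tissue inhibitors of metalloproteases (TIMPs) in the mouse heart. They were taken by gene symbol from the deposited table of coding genes: 51 of 22481 genes carried a symbol of the Mmp, Adamts, Adamtsl or Timp series. These were 23 matrix metalloproteases, 19 ADAMTS proteases, 5 ADAMTS-like genes and 4 TIMPs. The unit was FPKM, fragments counted relative to transcript length and library size, and the 35 genes with a mean of at least 0.5 FPKM over all libraries are described individually. RNA came from hearts of wild type mice: fetuses at E18, embryonic day 18, newborns of 3 days (3d) and adults of 8 weeks (8w), with 3 libraries per stage that the labels call biological replicates. The labels name the tissue as heart and also speak of cardiocytes, and no stage carried a treatment or an engineered allele. Strain, sex and the number of animals behind a library are not known from the labels, so p-values measure only the spread between these libraries.

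Matrix metalloproteases are zinc enzymes, secreted or anchored in the cell membrane, that are made as inactive precursors and cut collagens, gelatin, elastin and other proteins of the extracellular matrix. ADAMTS proteases carry thrombospondin repeats that hold them in the matrix; some cut versican and aggrecan, some trim procollagens, and some act on fibrillin networks, while the ADAMTS-like proteins keep the repeats and lack the protease domain. TIMPs bind the active site of metalloproteases and block it, and Timp3 also inhibits several ADAMTS enzymes. In the heart these enzymes shape valves, the growing compact muscle wall and the fibrillar collagen around muscle cells.

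The libraries held 12196940 to 15613383 coding and lncRNA fragments. Heart muscle markers were high throughout: 8 listed cardiomyocyte genes summed to between 14100 and 29800 FPKM, although Ttn, the gene of the giant sarcomere protein titin, was listed at 0 in every library, so a listed 0 is not read as absence below. Markers of lung epithelium (Sftpc, Sftpb, Sftpa1, Scgb1a1 and Scgb3a2) summed to 57.4 and 32.2 FPKM in 3d replicates 2 and 3 and to 103 in 8w replicate 2, and to at most 0.609 in the other 6 libraries. In bulk tissue, fewer cells of a type and less RNA per cell cannot be told apart.

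Each comparison was a limma-trend test on log2(FPKM + 1) over 12782 genes, 1 fit for all 9 libraries, with a call at a Benjamini-Hochberg adjusted p under 0.05. Fold changes on this scale understate the change of low genes. At 3d 6 of the 35 genes were called against E18, 3 higher and 3 lower, beside 24.9% of all tested genes called, 4.75% higher and 20.1% lower. From 3d to 8w 27 were called, 7 higher and 20 lower, beside 57.1% of all genes, 21.1% higher and 36.0% lower. From E18 to 8w 24 were called, 7 higher and 17 lower, beside 63.7%, 17.8% and 46.0%. Mmp3 passed the filter on the mean only through its 8w libraries, so its place among the genes higher at 8w was set by that filter. Libraries of the compared stages did not overlap for 8 genes higher and 4 lower at 3d (9.69% and 34.1% of all genes), 7 and 18 from 3d to 8w (22.5% and 38.0%), and 8 and 19 from E18 to 8w (20.4% and 51.3%). The median log2 fold change of the 35 genes was 0.03, -0.49 and -0.39 in these comparisons, against -0.15, -0.17 and -0.31 over all tested genes. On fragments recovered from the estimated counts and scaled by TMM, where the median of all genes lay at 0.01, 0.00 and 0.01 and that of the 35 genes at 0.22, -0.46 and -0.16, edgeR called 9 higher and 1 lower at 3d, 8 and 18 from 3d to 8w, and 13 and 14 from E18 to 8w. The comparisons share their libraries and are not independent of each other. With the 3 libraries that held lung markers left out, a setting chosen after seeing the data that leaves a single 3d library assumed to vary like the others, 51 of the 57 calls were kept, and 8 genes were higher and 2 lower at 3d, 4 and 22 from 3d to 8w, and 7 and 19 from E18 to 8w. In that setting the fall from 3d to 8w was over 1.5 times as large for Mmp2 (-1.17), Mmp15 (-0.56), Mmp28 (-1.49), Adamts4 (-1.09), Adamts7 (-0.83), Adamts8 (-1.83) and Adamts17 (-2.12).

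The share of all tested genes that followed each course below was not counted, so these counts describe the 35 genes only. By the limma calls the most frequent course, in 14 of the 35 genes, was no call between E18 and 3d and a lower level at 8w than at both earlier stages. These were Mmp2, Mmp14, Mmp15, Mmp16, Mmp23, Adamts1, Adamts3, Adamts4, Adamts6, Adamts8, Adamts12, Adamts17, Adamts19 and Timp1. A further 5 genes, Mmp3, Adamts5, Adamtsl2, Adamtsl4 and Adamtsl5, had no call at 3d and were higher at 8w than at both earlier stages. Timp4 was higher at each later stage, and Adamts9 and Adamtsl1 were lower at each later stage. Timp3 and Adamts7 were higher at 3d than at E18 and lower again at 8w. The 6 genes with no limma call in any comparison were Adamts2, Adamts10, Adamts15, Mmp11, Mmp19 and Timp2. Of these edgeR called Adamts2, Adamts15, Mmp19 and Timp2 higher in some comparison.

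**Figure D1:**
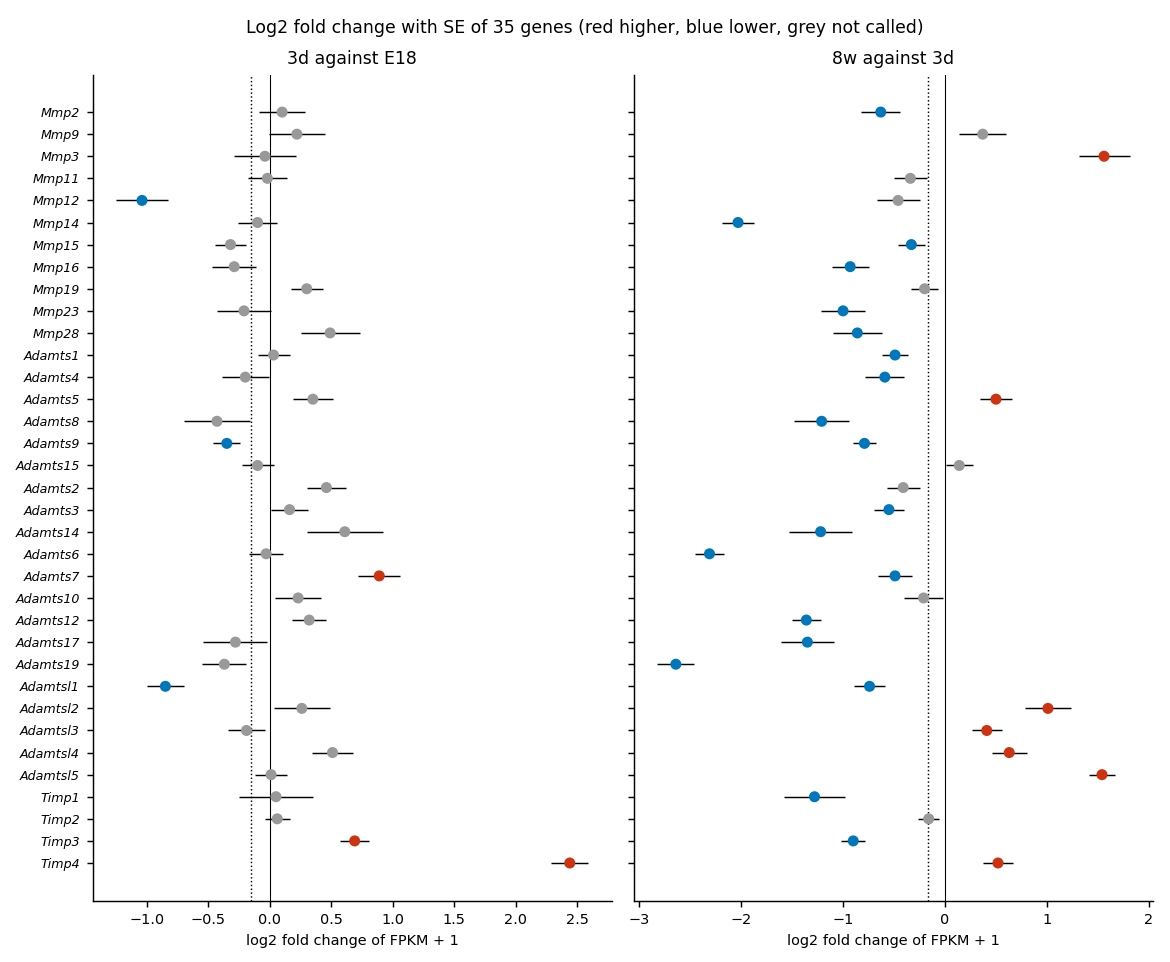
Log2 fold change of FPKM + 1 (horizontal axis) of the 35 genes for 3d against E18 and for 8w against 3d. Points are fold changes and bars their standard errors; red genes were called higher, blue lower and grey not called, and the dotted line is the median of all tested genes. At 3d 6 genes were called, with Timp4 at 2.44, and at 8w 27 were called, 20 of them lower.

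The start regions of 5 of these genes are shown because the motifs in capitals were unevenly spread between the clustered metalloproteases and the other members, with exceptions on both sides. RefSeq windows of 300 bases (250 before the gene start and 50 after it, build GRCm38.p6) were at hand for 36 of the 51 genes, 39 windows in all. They were searched for the AP-1 site TGANTCA, bound by Fos and Jun proteins, on both strands, the TATA box TATAAA on the gene's own strand and the GC box GGGCGG on both strands (GC boxes may overlap each other, and no other pair can). Only the 250 bases before the RefSeq start are printed, 5′ to 3′ on the gene's strand, with those motifs in capitals. Gene coordinates elsewhere are from GENCODE, in which Timp3 starts at 86300372, within the stretch printed for it and before its capitals.
Mmp3 (chr9:7445572-7445821, plus strand): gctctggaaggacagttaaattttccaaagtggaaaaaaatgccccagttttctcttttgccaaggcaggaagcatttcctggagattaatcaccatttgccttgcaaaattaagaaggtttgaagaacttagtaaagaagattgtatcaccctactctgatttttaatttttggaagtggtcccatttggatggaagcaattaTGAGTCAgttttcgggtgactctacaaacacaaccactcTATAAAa
Mmp13 (chr9:7272264-7272513, plus strand): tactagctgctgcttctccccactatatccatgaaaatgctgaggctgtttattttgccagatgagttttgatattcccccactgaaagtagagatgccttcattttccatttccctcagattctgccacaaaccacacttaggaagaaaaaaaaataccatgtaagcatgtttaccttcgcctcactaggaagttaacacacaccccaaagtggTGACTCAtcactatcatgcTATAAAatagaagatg
Mmp14 (chr14:54431348-54431597, plus strand): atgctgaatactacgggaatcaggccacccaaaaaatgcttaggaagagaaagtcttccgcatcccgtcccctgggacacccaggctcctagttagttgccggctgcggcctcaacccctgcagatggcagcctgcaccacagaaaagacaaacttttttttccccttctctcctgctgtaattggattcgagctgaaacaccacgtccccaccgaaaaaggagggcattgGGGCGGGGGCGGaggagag
Timp3 (chr10:86300162-86300411, plus strand): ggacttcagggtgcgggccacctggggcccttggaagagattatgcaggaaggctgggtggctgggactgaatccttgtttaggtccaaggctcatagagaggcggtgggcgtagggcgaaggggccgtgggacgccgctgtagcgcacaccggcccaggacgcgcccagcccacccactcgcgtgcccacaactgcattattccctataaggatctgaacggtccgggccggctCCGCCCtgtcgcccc
Timp4 (chr6:115252206-115252455, minus strand): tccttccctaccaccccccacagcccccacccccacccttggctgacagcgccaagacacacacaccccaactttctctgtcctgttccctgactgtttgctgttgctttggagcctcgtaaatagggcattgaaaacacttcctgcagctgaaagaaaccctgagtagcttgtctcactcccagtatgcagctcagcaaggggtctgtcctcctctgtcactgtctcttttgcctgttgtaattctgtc

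Mmp3 and Mmp13 belong to a cluster of metalloprotease genes on chromosome 9, and in both an AP-1 site stands shortly before a TATA box. Of the 12 windows of 10 clustered genes, 8 held both motifs, 4 held none of the 3 motifs and 0 held a GC box, and their GC content ran from 37.7% to 52.0%. Of the 27 windows of the other members, 0 held an AP-1 site, 3 a TATA box and 22 a GC box, and GC content ran from 53.3% to 80.0%. Mmp14 and Timp3 showed GC boxes, and the Timp4 window held none of the 3 motifs. Among 32851 windows of all genes 7.8% held the AP-1 site, 8.3% the TATA box, 35.7% the GC box and 0.995% both AP-1 and TATA. The clustered genes are tandem relatives, so their windows are not independent, and a match or its lack describes these letters only.

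The gelatinases and collagenases were led by Mmp2. Mmp2 (gelatinase A, which cuts denatured collagen and basement membrane collagen) lay at 29.6, 25.4 and 29.7 FPKM at E18, at 39.4, 29.9 and 23.8 at 3d and at 16.3, 25.2 and 17.6 at 8w. The 8w libraries lay below the E18 ones, while 8w replicate 2 lay above 3d replicate 3. Mmp2 was lower at 8w than at 3d by a log2 fold change of -0.63 ± 0.19 (SE, adjusted p = 0.0165, limma) and lower than at E18 by -0.52 ± 0.19 (adjusted p = 0.0333), and it was not called at 3d (0.10 ± 0.19, adjusted p = 0.735). Without the 3 lung-marked libraries it was called higher at 3d (0.47, adjusted p = 0.0430). The call against 3d was lost without 3d replicate 1 (adjusted p = 0.0547), 8w replicate 1 (0.0634) or 8w replicate 3 (0.0594), and that against E18 was lost with edgeR (-0.14, adjusted p = 0.496) and without E18 replicate 1 or 3 or 8w replicate 1 or 3 (adjusted p = 0.0893 to 0.118).

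Mmp9 (gelatinase B, stored by neutrophils and made by macrophages) was near the lower limit of the data. Its levels were 0.624, 0.0242 and 0.859 FPKM at E18, 0.584, 0.825 and 0.674 at 3d and 0.885, 1.81 and 0.987 at 8w. E18 replicate 2 rested on 1 fragment, and 8w replicate 2, the library with lung markers, was the highest. Mmp9 was called higher at 8w than at E18 (log2 fold change 0.59 ± 0.23, adjusted p = 0.0435, limma). Libraries did not overlap in FPKM, but fragments numbered only 7, 1 and 11 at E18 and 11, 23 and 21 at 8w. The call was lost without E18 replicate 2 (0.33, adjusted p = 0.172) and without 8w replicate 2 (0.41, adjusted p = 0.158). It also missed the threshold without E18 replicate 1, 3d replicate 2 or 3 or 8w replicate 3 (adjusted p = 0.0531 to 0.0578). Mmp9 was not called at 3d (0.22, adjusted p = 0.532) or from 3d to 8w (0.37, adjusted p = 0.188). The collagenases Mmp8 and Mmp13, which cut intact fibrillar collagen, had means over all libraries below 0.5 FPKM: Mmp8, the neutrophil collagenase, averaged 0.412 ± 0.117 (SD, n = 3) at E18, 0.619 ± 0.397 at 3d and 0.0476 ± 0.0460 at 8w, and Mmp13 did not reach 0.5 at any stage. Mmp8 was not tested, and its 3d replicate 1, at 0.189, lay below every E18 library. The 8 neutrophil markers summed to 12.4 to 15.9 FPKM at E18, 20.9 to 43.5 at 3d and 1.03 to 4.34 at 8w with Elane at 0 throughout. The 4 that were tested were all called lower at 8w than at 3d, beside 36.0% of all tested genes. Of these, Ngp (0.472, 0.984 and 0.0871 FPKM) and Retnlg (0.735, 2.29 and 0.0431) passed the filter on the mean only through their 3d libraries. Their calls against 3d were shaped by that filter. The part of the neutrophil markers in these values was not tested.

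The stromelysin Mmp3 and the metalloelastase Mmp12 belong to the same cluster on chromosome 9 (GRCm38, 7445822 to 7455975 and 7344381 to 7369499). The stage mean was highest at 8w for Mmp3 and at E18 for Mmp12. Mmp3 (stromelysin, which cuts many matrix proteins and activates other metalloproteases) was near 0 in young hearts, at 0.0445 ± 0.0440 FPKM in E18 hearts and 0.0148 ± 0.0257 in 3d hearts (SD, n = 3), against 2.19 ± 1.44 in 8w hearts. Its 8w libraries, at 1.56, 3.84 and 1.18 FPKM, all lay above every younger library. The 3 stages held 3, 1 and 185 fragments, a ratio of library shares of 52.8 between 8w and E18 (95% interval 17.8 to 258, counting error only) and of 159 between 8w and 3d (28.3 to 6330). On the log2(FPKM + 1) scale Mmp3 was higher by 1.56 ± 0.25 against 3d (adjusted p = 0.000338, limma) and by 1.52 ± 0.25 against E18 (adjusted p = 0.000316), and without 8w replicate 2 by 1.22 and 1.18. Only the 8w libraries carried its mean past 0.5 FPKM, so the gene could enter the test only by differing, and these values describe it without supporting a rise.

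Mmp12 (macrophage metalloelastase, which cuts elastin) averaged 3.32 ± 1.08, 1.08 ± 0.355 and 0.503 ± 0.213 FPKM at the 3 stages in turn (SD, n = 3). It was called lower at 3d than at E18, by a log2 fold change of -1.04 ± 0.21 (adjusted p = 0.00656, limma), and lower at 8w than at E18 by -1.50. From 3d to 8w, -0.46 (adjusted p = 0.0856) was not called, but was without E18 replicate 2 (adjusted p = 0.0432) or 3d replicate 1 (-0.59, adjusted p = 0.0483). The 7 macrophage markers in the table summed to 22.2 to 24.5 FPKM at E18, 24.4 to 44.5 at 3d and 82.6 to 95.9 at 8w. At 3d against E18 limma called 0 of them and edgeR 3 higher. From 3d to 8w, where Mmp12 was not called, limma called 7 of 7 higher, and from E18 to 8w 6 of 7. Of all tested genes 21.1% and 17.8% were higher in these comparisons. Cd163, at 0.211, 0.431 and 5.82 FPKM, passed the filter on the mean only through its 8w libraries, so its calls were set by that filter. The part of the macrophage markers in the course of Mmp12 was not tested. Mmp11 (stromelysin-3, cut to its active form by furin inside the cell) was not called by limma or edgeR, at 2.53 ± 0.0799, 2.49 ± 0.510 and 1.77 ± 0.449 FPKM. Without 8w replicate 3 limma called it lower at 8w than at 3d (-0.46, adjusted p = 0.0333) and than at E18 (-0.49, adjusted p = 0.0232). Without 3d replicate 2 the call was against 3d (-0.45, adjusted p = 0.0442). The annotation places 155 of its exon bases opposite Chchd10.

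Limma called all 3 membrane-type metalloproteases above 0.5 FPKM lower at 8w than at 3d and than at E18. Of all tested genes 36.0% and 46.0% were lower in these comparisons. By edgeR 2 of the 3 were lower than at 3d, and all 3 were lower than at E18. Mmp14 (MT1-MMP, a collagenase of the cell surface that activates the Mmp2 precursor together with Timp2, GRCm38 chromosome 14 from 54431612 to 54445364) lay at 35.2, 30.5 and 34.8 FPKM at E18, at 40.4, 29.8 and 25 at 3d and at 5.87, 7.56 and 7.35 at 8w. The 6 younger libraries overlapped, and every 8w library lay far below all of them. From 3d to 8w the mean fell from 31.7 to 6.93 FPKM, 4.58-fold, with a log2 fold change of -2.03 ± 0.16 (adjusted p = 2.66e-06, limma); against E18 it was -2.12 ± 0.16 (adjusted p = 1.17e-06), and no call was made at 3d (-0.10, adjusted p = 0.699). Both calls were kept under all 20 alternative settings. Mmp14 and Mmp2 were at like levels in young hearts, whereas at 8w Mmp14 was at 6.93 and Mmp2 at 19.7 FPKM.

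Mmp15 (MT2-MMP) lay at 28.5, 27.2 and 27.9 FPKM at E18, at 25.6, 22.7 and 18.8 at 3d and at 15.0, 18.4 and 19.3 at 8w. All 8w libraries were below the E18 ones, and 8w replicate 3 was above 3d replicate 3. Mmp15 was lower at 8w than at E18 by -0.64 ± 0.13 (log2, adjusted p = 0.00114, limma); the difference from 3d, -0.33 ± 0.13 (adjusted p = 0.0460), was lost in edgeR (-0.15, adjusted p = 0.269) and when any library but 3d replicate 3 or 8w replicate 3 was left out (adjusted p = 0.0619 to 0.165), and at 3d it was not called (-0.32, adjusted p = 0.0931) except without 3d replicate 1 (-0.42, adjusted p = 0.0334). Mmp16 (MT3-MMP) averaged 3.69 ± 0.887, 2.85 ± 0.789 and 0.991 ± 0.124 FPKM, with log2 fold changes of -0.93 from 3d to 8w and -1.22 from E18 to 8w that passed. Mmp17, Mmp24 and Mmp25 stayed below 0.5 FPKM at each stage. The antisense lncRNA entry BC029722, which shares 637 exon bases with Mmp24 on the opposite strand, was at 4.42 to 6.54 FPKM at E18, 4.16 to 6.19 at 3d and 9.19 to 11.5 at 8w, while Mmp24 itself averaged at most 0.0115.

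Among the other matrix metalloproteases, Mmp23 (an enzyme released from the membrane by furin-like cleavage) lay at 9.74, 6.19 and 9.10 FPKM at E18, at 9.37, 7.49 and 4.72 at 3d and at 2.89, 2.86 and 3.19 at 8w. The young stages overlapped and the 8w libraries stood apart below them. Mmp23 was lower at 8w than at 3d by -1.0 ± 0.22 (log2, adjusted p = 0.00253, limma) and than at E18 by -1.21 ± 0.22 (adjusted p = 0.000594), with no call at 3d (-0.21, adjusted p = 0.514). Mmp28 (epilysin, found in many healthy tissues) averaged 2.64 ± 0.462, 4.20 ± 1.47 and 1.89 ± 0.833 FPKM and was lower at 8w than at 3d by -0.86. At 3d edgeR called it higher than at E18 (0.84, adjusted p = 0.0320), as limma (0.49, adjusted p = 0.172) did only without the lung-marked libraries (0.92, adjusted p = 0.0392), where it was also lower from E18 to 8w (-0.57, adjusted p = 0.0358). The annotation sets 466 of its exon bases opposite 1700020L24Rik. Mmp19 was not called by limma, at 0.863 ± 0.0815, 1.31 ± 0.239 and 1.00 ± 0.115 FPKM. By edgeR it was called higher than at E18 both at 3d (0.78, adjusted p = 0.0285) and at 8w (0.60, adjusted p = 0.0377). Of its exon bases 789 lie opposite Tmem198b.

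**Figure D2:**
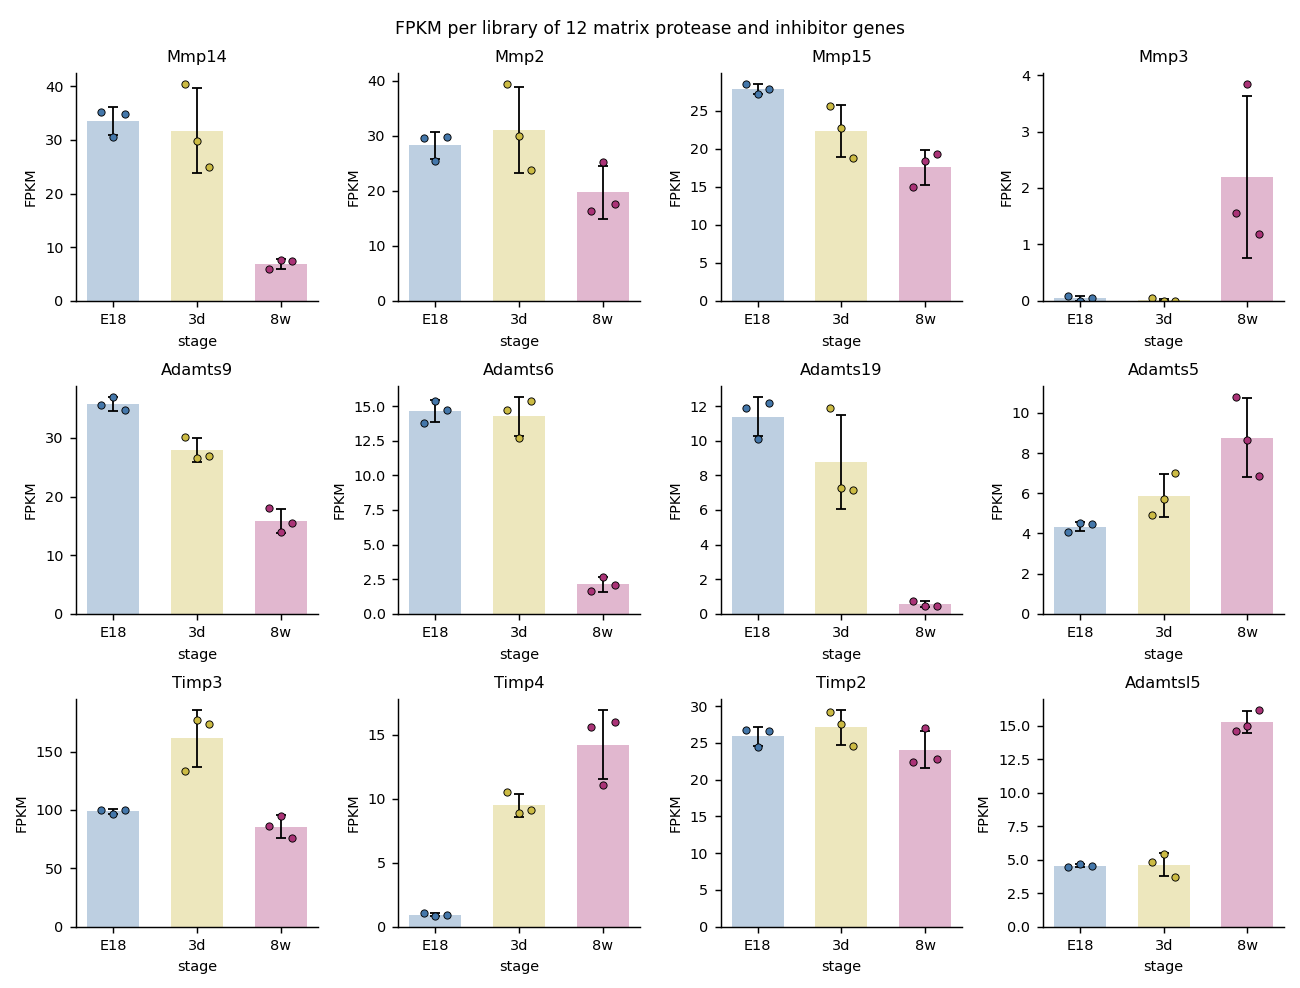
FPKM (vertical axis, each panel on its own scale from 0) of 12 of the genes in every library by stage. Points are libraries, bars are stage means and error bars are SD (n = 3). Mmp14, Adamts6 and Adamts19 drop at 8w, Adamtsl5 and Mmp3 are highest at 8w, Timp4 rises at 3d and 8w, and Timp3 peaks at 3d.

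The ADAMTS enzymes that cut versican and aggrecan did not share a single course. Of 6 above 0.5 FPKM, limma called 4 lower and 1 higher at 8w than at 3d, beside 36.0% and 21.1% of all tested genes. By edgeR 4 were lower and 2 higher. Adamts9 (a versican-cutting enzyme of the developing myocardium and valves) was the highest ADAMTS gene at E18 and 3d. Its levels were 35.6, 37.0 and 34.7 FPKM at E18, 30.2, 26.6 and 27.0 at 3d and 18, 13.9 and 15.5 at 8w, and no stage overlapped another. The log2 fold change was -0.79 ± 0.11 from 3d to 8w (adjusted p = 0.000101, limma) and -1.14 ± 0.11 from E18 to 8w (adjusted p = 4.83e-06). The smaller drop at 3d, -0.35 ± 0.11 (adjusted p = 0.0349), was not called by edgeR (-0.19, adjusted p = 0.264) and was lost when any E18 library or 3d replicate 2 or 3 was left out (adjusted p = 0.0801 to 0.108) and without the 3 lung-marked libraries (-0.24, adjusted p = 0.194). Of its exon bases 1381 lie opposite A730049H05Rik and 424 opposite Gm15737, and without a stated counting strand their reads cannot be told apart.

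Adamts1 and Adamts5 lie side by side on chromosome 16 (GRCm38, 85793827 to 85803113 and 85856173 to 85901828, both on the minus strand) and moved in opposite directions. Adamts1 (a versican-cutting enzyme of heart trabeculae) lay at 21.7, 22.2 and 22.8 FPKM at E18, at 21.9, 25.4 and 21.2 at 3d and at 13.4, 15.6 and 19.1 at 8w. Every 8w library was below every younger one, by -0.49 ± 0.13 against 3d (log2, adjusted p = 0.00652, limma) and -0.46 ± 0.13 against E18 (adjusted p = 0.00793), with no call at 3d (0.03, adjusted p = 0.884). The call against E18 was lost with edgeR (-0.16, adjusted p = 0.163), and that against 3d was lost with median centring and with the 3 lung-marked libraries left out (-0.43, adjusted p = 0.104).

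Adamts5 (an aggrecanase whose loss in mice leaves versican-rich, enlarged valves) lay at 4.08, 4.50 and 4.45 FPKM at E18, at 4.90, 5.71 and 7.02 at 3d and at 10.8, 8.66 and 6.87 at 8w. Its 8w libraries were above all E18 libraries, and 8w replicate 3 was just below 3d replicate 3. The log2 fold change from E18 to 8w was 0.85 ± 0.16 (adjusted p = 0.000963, limma). From 3d to 8w it was 0.50 ± 0.16 (adjusted p = 0.0233), lost without 3d replicate 1 (adjusted p = 0.0723), 3d replicate 2 (0.0618), 8w replicate 1 (0.0910) or 8w replicate 2 (0.0533), and at 3d it was 0.35 (adjusted p = 0.139), which edgeR called (0.63, adjusted p = 0.0214).

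Adamts8 and Adamts15 are another neighbouring pair, on chromosome 9 (GRCm38, 30942562 to 30963838 and 30899155 to 30922452). Adamts8 averaged 4.32 ± 1.27, 3.04 ± 1.49 and 0.697 ± 0.335 FPKM (SD, n = 3), with log2 fold changes of -1.21 from 3d to 8w and -1.64 from E18 to 8w that passed. Without 3d replicate 1 it was also called lower at 3d (-0.72, adjusted p = 0.0484). The antisense lncRNA entry AK084540 over it averaged 0.982, 0.893 and 0.153 FPKM. Adamts15 was not called by limma, at 2.57 ± 0.140, 2.34 ± 0.405 and 2.66 ± 0.286 FPKM. By edgeR it was called higher at 8w than at 3d (0.38, adjusted p = 0.0342) and than at E18 (0.43, adjusted p = 0.0171). Adamts4, an aggrecanase, averaged 1.71 ± 0.0222, 1.42 ± 0.673 and 0.573 ± 0.206 FPKM and was lower at 8w than at E18 by -0.79 and than at 3d by -0.59, the latter lost without 3d replicate 1 (-0.39, adjusted p = 0.0758) and without 3d replicate 2, 8w replicate 1 or 8w replicate 3 (adjusted p = 0.0567 to 0.0797). Adamts20, below 0.5 FPKM over all libraries, averaged 0.639 ± 0.147 at E18, 0.484 ± 0.0363 at 3d and 0.158 ± 0.0182 at 8w.

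The procollagen N-propeptidases remove the amino-terminal propeptide of fibrillar collagens before fibrils form. Adamts2, the main enzyme of this kind in skin, averaged 5.46 ± 0.659, 7.99 ± 1.89 and 5.67 ± 0.637 FPKM and was not called in limma, while edgeR called it higher than at E18 at 3d (0.83, adjusted p = 0.00428) and at 8w (0.46, adjusted p = 0.0270). Without 3d replicate 3 limma called Adamts2 higher at 3d (0.62 in place of 0.46, adjusted p = 0.0172) and lower from 3d to 8w (-0.58 in place of -0.41, adjusted p = 0.00785). Without the 3 lung-marked libraries the values were 0.75 (adjusted p = 0.0222) and -0.77 (adjusted p = 0.00983). Adamts3, which also takes part in the maturation of Vegfc, averaged 2.60 ± 0.424, 3.04 ± 0.556 and 1.74 ± 0.132 FPKM and was lower at 8w than at 3d by -0.55; against E18 the call (-0.39) was lost in 11 of 20 alternative settings, among them without E18 replicate 2 or 3, 3d replicate 2, 8w replicate 1 or 8w replicate 3 (adjusted p = 0.0532 to 0.134). Adamts14 averaged 0.940 ± 0.821, 1.79 ± 0.567 and 0.186 ± 0.131 FPKM and was lower at 8w than at 3d by -1.22. From E18 to 8w, -0.61 (adjusted p = 0.106) was not called, but without E18 replicate 1 it was -1.02 and called (adjusted p = 0.0017). That library was at 0.00955 FPKM, 1 fragment, while a lncRNA entry over the same exons was at 1.41 there and at most 0.132 elsewhere, and the reads of these entries cannot be told apart from the tables.

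On the log2(FPKM + 1) scale the largest falls among the 35 genes at 8w, in Adamts19 and Adamts6, were in the remaining ADAMTS proteases. Of these 6, limma called 5 lower than at 3d, beside 36.0% of all tested genes, and edgeR called 4 lower. Adamts19, whose loss in mice and people leads to heart valve disease, lay at 11.9, 10.1 and 12.2 FPKM at E18, at 11.9, 7.27 and 7.15 at 3d and at 0.729, 0.460 and 0.433 at 8w. The young libraries overlapped, with 3d replicate 1 at the E18 level, and all 8w libraries were below 1 FPKM. The mean fell 16.2-fold from 3d to 8w, with a log2 fold change of -2.64 ± 0.18 (adjusted p = 9.54e-07, limma), and 21.1-fold from E18, -3.01 ± 0.18 (adjusted p = 2.19e-07). At 3d it was not called (-0.37, adjusted p = 0.160), but was once 3d replicate 1 was left out (-0.59, adjusted p = 0.0140). The 6 endocardial and valve markers summed to 45.2 to 49.8 FPKM at E18, 40.1 to 51.8 at 3d and 25.2 to 32.4 at 8w, with none at 0. Of these 4 were called lower at 8w than at 3d, Cytl1 was called higher (0.86, adjusted p = 0.00902, limma) and Scx was not called, and their part in the fall of Adamts19 was not tested.

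Adamts6 (an enzyme linked to fibrillin and to heart malformations in mice that lack it, GRCm38 chromosome 13 from 104287835 to 104496695) lay at 13.8, 15.4 and 14.7 FPKM at E18, at 14.7, 12.7 and 15.4 at 3d and at 1.61, 2.65 and 2.07 at 8w. Young libraries overlapped and the 8w ones stood far below. The mean fell 6.76-fold from 3d to 8w, with a log2 fold change of -2.31 ± 0.14 (adjusted p = 3.40e-07, limma), and by -2.34 ± 0.14 from E18 (adjusted p = 1.72e-07), with no call at 3d (-0.03, adjusted p = 0.883). A lncRNA entry that overlaps its exons on the same strand moved likewise, at 11, 9.91 and 1.13 FPKM, and shares reads with it to an extent that cannot be read from the tables.

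Adamts6 was also the member with most circular RNA, RNA closed by a back-splice. Of 4610 circRNAs 13 came from 5 of the 51 genes, and 8 of them from Adamts6, with 37 back-splice reads at E18, 29 at 3d and 20 at 8w. Per library these were 10, 11 and 16 reads at E18, 6, 15 and 8 at 3d and 8, 2 and 10 at 8w. Per 1000 fragments of the coding entry this came to 13.0 at E18 (95% Poisson interval 9.12 to 17.9), 9.84 at 3d (6.59 to 14.1) and 39.0 at 8w (23.8 to 60.2), intervals that cover counting error only. The 8w libraries were uneven, at 55.6, 9.30 and 64.9 per 1000, and replicate 2, with 2 reads, lay within the younger range of 6.24 to 16.9. Timp3 had 2 circRNAs, listed as intronic and as sense overlapping where those of the other hosts were exonic, with 1, 3 and 20 reads per stage. Of the 20 reads 17 were in 8w replicate 2, a library with lung markers. Mmp15 had 1 circRNA with 7, 13 and 3 reads, and the single circRNAs of Adamts9 and Adamts19 had 2 reads each.

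**Figure D3:**
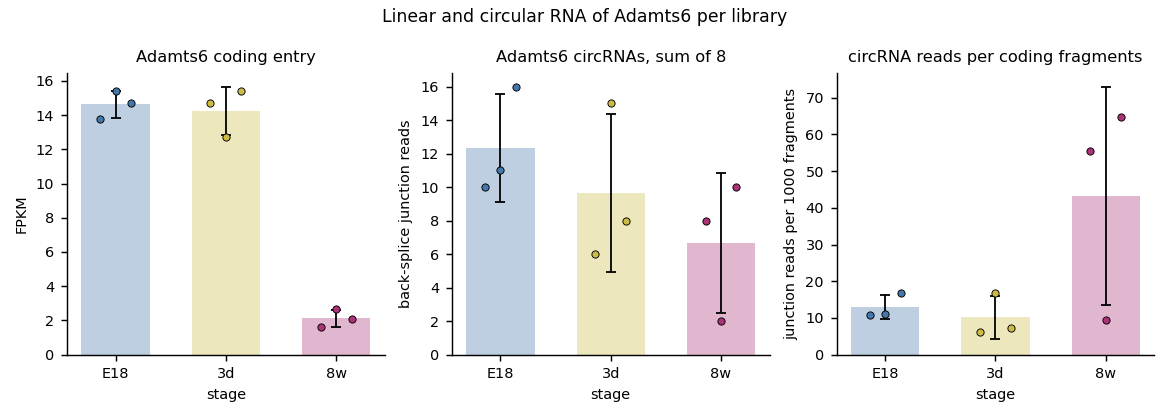
Adamts6 in every library by stage: FPKM of the coding entry, summed back-splice junction reads of its 8 circRNAs, and junction reads per 1000 coding fragments (vertical axes). Points are libraries, bars stage means and error bars SD (n = 3). The coding entry is at 1.61 to 2.65 FPKM at 8w, and the ratio at 8w is 55.6, 9.30 and 64.9 against 6.24 to 16.9 in younger libraries.

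Adamts7 and Adamts12 are relatives that cut the cartilage protein Comp. Adamts7 lay at 4.17, 3.08 and 3.98 FPKM at E18, at 10.5, 6.93 and 6.32 at 3d and at 5.76, 4.80 and 5.13 at 8w. The stages did not overlap, with 3d above 8w and 8w above E18. It was higher at 3d than at E18 by 0.89 ± 0.17 (log2, adjusted p = 0.00568, limma), and 0.40 ± 0.17 from E18 to 8w was not called (adjusted p = 0.0685). That last difference was called by edgeR (0.89, adjusted p = 0.00188), and by limma without 3d replicate 1 (0.40, adjusted p = 0.0182) or without the 3 lung-marked libraries (0.45, adjusted p = 0.0281). The drop from 3d to 8w, -0.49 ± 0.17 (adjusted p = 0.0338), was not seen in recovered fragments (edgeR -0.08, adjusted p = 0.753): 1000 fragments of Adamts7 were worth 20.4 to 22.3 FPKM at 3d and 13.3 to 15.6 at 8w. Without 3d replicate 1 the drop was -0.29 (adjusted p = 0.102), it missed the threshold without 8w replicate 2 (0.0936) or 8w replicate 3 (0.0793), and the annotation sets 122 exon bases opposite Tbc1d2b.

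Adamts12 lay at 5.01, 4.66 and 5.23 FPKM at E18, at 6.69, 6.43 and 6.27 at 3d and at 2.20, 2.20 and 1.39 at 8w. The 3 stages did not overlap, and 3d was the highest. The log2 fold change was -1.36 ± 0.14 from 3d to 8w (adjusted p = 1.37e-05, limma) and -1.04 ± 0.14 from E18 to 8w (adjusted p = 7.27e-05); at 3d it was 0.32 (adjusted p = 0.111), which edgeR called (0.57, adjusted p = 0.0134). Adamts17, whose human counterpart is mutated in a Weill-Marchesani-like syndrome, averaged 4.18 ± 0.441, 3.57 ± 2.24 and 0.671 ± 0.0532 FPKM and was lower at 8w by -1.35 against 3d and -1.63 against E18. Its 8w libraries held 50, 37 and 15 fragments, a wider spread than that of their FPKM. Its 3d replicate 1 was at 6.15 FPKM against 2.46 and 2.10 in the other 3d libraries, and without it Adamts17 was also called lower at 3d than at E18 (-0.66 in place of -0.28, adjusted p = 0.00815).

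Adamts10, mutated in Weill-Marchesani syndrome itself, was not called by limma or edgeR, at 7.21 ± 0.643, 8.94 ± 3.08 and 7.32 ± 0.635 FPKM. Its 3d libraries were uneven, at 12.2, 8.46 and 6.14 FPKM. Without 3d replicate 3 limma called it lower at 8w than at 3d (-0.43 in place of -0.21, adjusted p = 0.0423). Without the 3 lung-marked libraries it was higher at 3d than at E18 by 0.69 (adjusted p = 0.0214) and lower at 8w than at 3d by -0.72 (adjusted p = 0.00919).

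Of the 5 ADAMTS-like genes 4 were called higher and 1 lower at 8w than at 3d, with the same counts in edgeR, beside 21.1% and 36.0% of all tested genes in limma. Of the 4 higher calls, those of Adamtsl2, Adamtsl3 and Adamtsl4 were lost with the 3 lung-marked libraries left out, and that of Adamtsl5 was kept. Adamtsl5 (a matrix protein that binds fibrillin, GRCm38 chromosome 10 from 80339110 to 80348412) lay at 4.48, 4.66 and 4.51 FPKM at E18, at 4.79, 5.39 and 3.71 at 3d and at 14.6, 15.0 and 16.2 at 8w. Young libraries overlapped and all adult ones were far above. The mean rose 3.29-fold from 3d, with a log2 fold change of 1.54 ± 0.13 (adjusted p = 3.27e-06, limma), and by 1.55 ± 0.13 from E18 (adjusted p = 1.97e-06), with no call at 3d (0.01, adjusted p = 0.967).

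Adamtsl2, which binds fibrillin and a latent TGF-beta binding protein, lay at 2.83, 2.27 and 2.70 FPKM at E18, at 4.84, 3.03 and 2.40 at 3d and at 5.31, 9.20 and 9.06 at 8w. The 8w libraries were above all others, with replicate 1 close to 3d replicate 1. The log2 fold change was 1.01 ± 0.23 from 3d to 8w (adjusted p = 0.00338, limma), 1.27 ± 0.23 from E18 (adjusted p = 0.000628) and 0.26 at 3d (adjusted p = 0.436). With the 3 lung-marked libraries left out, which leaves a single 3d library, the difference from 3d was 0.45 (adjusted p = 0.214).

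Adamtsl4, in people a fibrillin-binding protein of the fibres that hold the eye's lens, lay at 2.52, 2.12 and 2.59 FPKM at E18, at 4.69, 3.61 and 3.32 at 3d and at 5.04, 8.15 and 6.68 at 8w. No stage overlapped another, in rising order. From 3d to 8w the log2 fold change was 0.63 ± 0.17 (adjusted p = 0.00871, limma), from E18 to 8w 1.14 ± 0.17 (adjusted p = 0.000171) and at 3d 0.51 ± 0.17 (adjusted p = 0.0516), which edgeR called (0.87, adjusted p = 0.00545), as did limma without 8w replicate 1 (adjusted p = 0.0322), without 8w replicate 2 (0.0395) or without the 3 lung-marked libraries (0.74, adjusted p = 0.0343). Without the 3 lung-marked libraries the difference between 3d and 8w was 0.26 (adjusted p = 0.320).

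Adamtsl1 (punctin) was the exception. It lay at 4.92, 5.94 and 5.31 FPKM at E18, at 3.11, 2.47 and 2.10 at 3d and at 1.45, 0.845 and 1.11 at 8w, and no stage overlapped another. It was lower by -0.85 ± 0.15 at 3d (log2, adjusted p = 0.00392, limma; edgeR -0.49, adjusted p = 0.106), by -0.74 ± 0.15 from 3d to 8w (adjusted p = 0.00213) and by -1.59 ± 0.15 from E18 to 8w (adjusted p = 7.37e-06). Adamtsl3 averaged 2.60 ± 0.517, 2.14 ± 0.315 and 3.18 ± 0.344 FPKM and was higher at 8w than at 3d by 0.41, a call lost without 3d replicate 3 (adjusted p = 0.0971), without 8w replicate 2 (0.0973) and without the 3 lung-marked libraries (0.30, adjusted p = 0.259). From E18 to 8w Adamtsl3 was called by edgeR (0.69, adjusted p = 0.000579) and not by limma (0.22, adjusted p = 0.205).

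The 4 inhibitors each had a course of their own, and as a family their median log2 fold change from E18 to 8w was -0.16 in limma and 0.23 in edgeR. Timp3, the inhibitor that is bound to the matrix, was the highest of all 51 genes at every stage. It lay at 100, 96.3 and 100 FPKM at E18, at 133, 177 and 174 at 3d and at 86.5, 94.9 and 75.6 at 8w. All 3d libraries were above all others, with 3d replicate 1 the lowest of them, and the 8w libraries were just below the E18 ones. Timp3 was higher at 3d than at E18 by 0.69 ± 0.12 (log2, adjusted p = 0.00369, limma) and lower at 8w than at 3d by -0.90 ± 0.12 (adjusted p = 0.000130), with -0.21 from E18 to 8w (adjusted p = 0.159, 0.17 in edgeR). With the 3 lung-marked libraries left out, 3d replicates 2 and 3 among them, the rise at 3d was 0.42 (adjusted p = 0.0372) and the drop from E18 to 8w, -0.29, was called (adjusted p = 0.0232).

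Timp4, an inhibitor found mainly in the heart, showed the largest rise at 3d of the 35 genes. It lay at 1.05, 0.834 and 0.900 FPKM at E18, at 10.5, 8.88 and 9.08 at 3d and at 15.6, 11.1 and 16.0 at 8w. No stage overlapped another, although 8w replicate 2 was close to 3d replicate 1. The mean rose 10.3-fold between E18 and 3d, with a log2 fold change of 2.44 ± 0.15 (adjusted p = 2.86e-05, limma), and 15.4-fold between E18 and 8w, 2.97 ± 0.15 (adjusted p = 5.14e-08). The further step from 3d to 8w was 0.52 ± 0.15 (adjusted p = 0.0110).

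Timp2, which helps Mmp14 to activate Mmp2, lay at 26.7, 24.4 and 26.6 FPKM at E18, at 29.2, 27.6 and 24.5 at 3d and at 22.4, 27.0 and 22.8 at 8w. The stages overlapped and no comparison was called, with log2 fold changes of 0.06 ± 0.10, -0.16 ± 0.10 and -0.10 ± 0.10 (adjusted p = 0.705, 0.198 and 0.408, limma). From E18 to 8w edgeR gave 0.28 (adjusted p = 0.0155), a call in the other direction. Without the 3 lung-marked libraries limma called Timp2 lower at 8w than at 3d (-0.35, adjusted p = 0.0380). Timp1, an inhibitor that is induced in inflammation and wounding, lay at 3.98, 1.74 and 3.60 FPKM at E18, at 4.31, 2.55 and 2.74 at 3d and at 1.07, 0.0917 and 1.20 at 8w. All 8w libraries were below all others, and 8w replicate 2 rested on 1 fragment. Timp1 was lower at 8w than at 3d by -1.28 ± 0.30 (adjusted p = 0.00450, limma) and than at E18 by -1.22 ± 0.30 (adjusted p = 0.00484), and without 8w replicate 2 by -0.95 (adjusted p = 0.0146) and -0.90 (adjusted p = 0.0165); at 3d it was not called (0.05, adjusted p = 0.916).

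Timp1, Timp3 and Timp4 lie inside the synapsin genes Syn1, Syn3 and Syn2 on the opposite strand (GRCm38; Timp1 on X from 20870166 to 20874735, Timp3 on 10 from 86300372 to 86349506, Timp4 on 6 from 115241892 to 115252205). Shared exon bases numbered 0, 1733 and 90. The synapsins were low, with Syn1 at most at 0.143, Syn2 at most at 1.33 and Syn3 at most at 1.75 FPKM in any library.

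Summed over family, as a description with no test, the matrix metalloproteases came to 113 ± 9.85, 106 ± 23.4 and 57.7 ± 9.18 FPKM over the 3 stages in order of age (SD, n = 3). The ADAMTS proteases came to 127 ± 2.92, 127 ± 16.3 and 70.1 ± 2.05, and the ADAMTS-like genes to 17.5 ± 0.672, 16.6 ± 3.18 and 34.0 ± 4.09. The TIMPs came to 129 ± 4.78, 201 ± 21.3 and 125 ± 8.74, of which Timp3 alone gave 76.8%, 80.2% and 68.6%. The ratio of summed metalloproteases to summed TIMPs was 0.905, 0.823 and 0.895 in the E18 libraries, 0.743, 0.474 and 0.403 at 3d and 0.389, 0.505 and 0.493 at 8w. Both later stages lay below E18 in every library. However, 3d replicates 2 and 3 and 8w replicate 2 are the libraries with lung markers. The 3d library without them, replicate 1, stood between E18 and the rest. Its summed TIMPs came to 177 FPKM, against 216 and 210 in 3d replicates 2 and 3. The part of lung tissue in these sums was not tested. The ratio counts transcripts and says nothing of active enzyme.

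**Figure D4:**
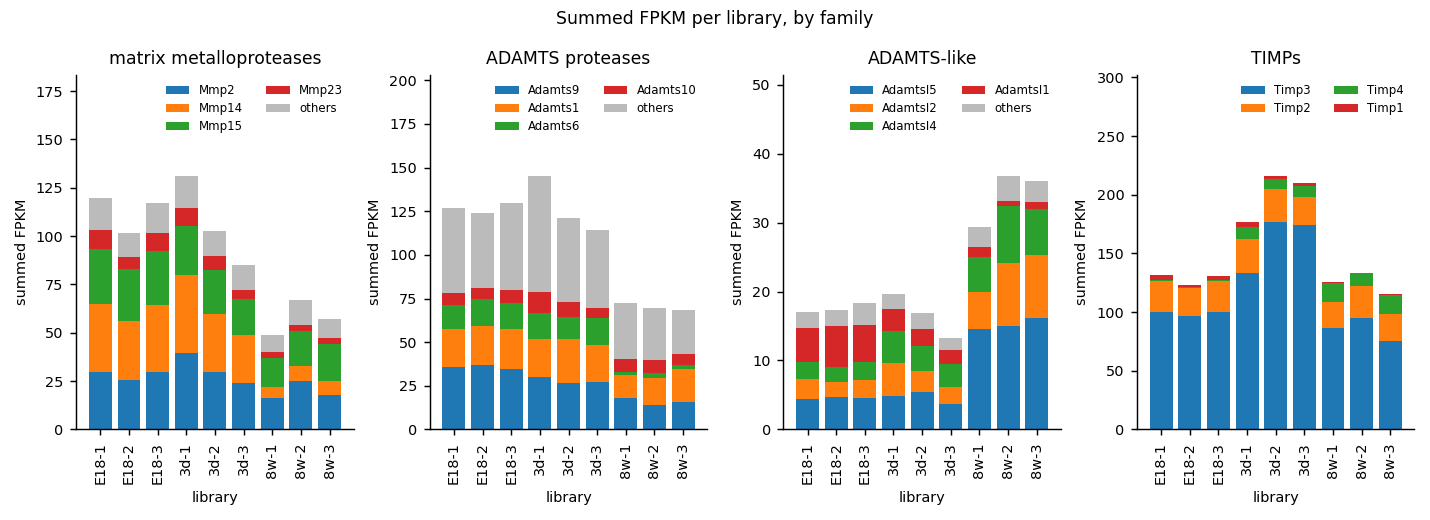
Summed FPKM (vertical axis, from 0) of each family in the 9 libraries, with colours for the leading genes and grey for the others. Metalloprotease and ADAMTS sums are lowest in the 8w libraries, and ADAMTS-like sums are highest there. TIMP sums are highest at 3d, most of all in 3d replicates 2 and 3, which held lung markers, and Timp3 gives most of them.

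Of the 16 genes below 0.5 FPKM, 4 (Mmp1b, Mmp7, Mmp10 and Mmp20) were listed at 0 in every library. Mmp8 and Adamts20 were the 2 that reached 0.5 FPKM in a stage mean. Across families, levels ranged widely at E18: Timp3 averaged 98.9 FPKM, Adamts9 35.8, Mmp14 33.5, Mmp2 28.3 and Mmp15 27.9. Adamts9 and Mmp14 did not differ beyond their spread, nor did Mmp2 and Mmp15. At 8w the order among proteases was Mmp2 at 19.7 ± 4.78, Mmp15 at 17.6 ± 2.27, Adamts1 at 16.0 ± 2.87 and Adamts9 at 15.8 ± 2.07 FPKM, which do not differ beyond their spread.

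Other genes of matrix turnover were counted from lists by role. In limma 36.0% of all tested genes were lower and 21.1% higher at 8w than at 3d. From E18 to 8w these shares were 46.0% and 17.8%, and at 3d against E18 they were 20.1% and 4.75%. Of 20 tested substrates of the proteases described above, 16 were lower and 3 higher at 8w than at 3d, with a median log2 fold change of -1.34. Versican, Vcan, the substrate of several ADAMTS enzymes, averaged 86.4, 57.8 and 12.8 FPKM at E18, 3d and 8w and was also called lower at 3d (-0.57, adjusted p = 0.00363, limma), as was Fbn2 (-0.64), the fibrillin of fetal tissue. At 3d against E18 limma called 2 of the 20 substrates lower and 0 higher, whereas edgeR called 1 lower and 2 higher. From 3d to 8w Fbn2 fell from 26.1 to 1.04 FPKM (-3.76 ± 0.15), Postn, a matricellular protein of young fibroblasts and valves, from 384 to 32.0 (-3.59 ± 0.19) and Fn1, fibronectin, from 99.7 to 12.5 (-2.91 ± 0.17). The 3 called higher, named after their values were seen, were Dcn (decorin, a small proteoglycan on collagen fibrils), from 111 to 268 FPKM (1.28 ± 0.17), Lum and Comp. Comp, at 0.299, 0.562 and 2.17 FPKM, passed the filter on the mean only through its 8w libraries. Its place among the genes higher at 8w was set by that filter. From E18 to 8w 16 were lower and 3 higher.

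Of 17 other metalloproteases of the matrix and cell surface and their helpers, 10 were lower and 2 higher at 8w than at 3d (median -0.57), and edgeR called 9 lower and 4 higher. At 3d 3 were higher than at E18 (Adam15, Adam22 and Adam23) and 1 lower, and from E18 to 8w 11 were lower and 3 higher, against 5 higher and 0 lower, and 9 lower and 6 higher, in edgeR. Adam15, a protease of the cell surface, was higher at 3d, at 13.9 and then 21.2 FPKM (0.57, adjusted p = 0.00308, limma), and lower again at 8w at 12.1 (-0.77 ± 0.10). Pcolce2, an enhancer of procollagen C-propeptide removal, rose from 0.687 to 10.6 FPKM at 8w (2.80 ± 0.24), while Adam23, a surface protein without protease activity, fell from 5 to 1.11 (-1.48 ± 0.18).

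Of 17 tested activators, cofactors and clearance genes, 9 were lower and 5 higher at 8w than at 3d (median -0.40), and edgeR called 6 lower and 5 higher; from E18 to 8w 10 were lower and 4 higher, and in edgeR 6 and 5. At 3d the direction turned with the test: limma called 2 lower and 0 higher than at E18, and edgeR 0 lower and 2 higher. Pcsk6, a convertase that trims precursors, rose from 7.28 to 36.0 FPKM (2.16 ± 0.13), Bsg, the surface protein basigin that induces metalloproteases, from 234 to 646 (1.47 ± 0.09), and Thbs1, a thrombospondin, fell from 20.4 to 6.66 (-1.52 ± 0.24). The cathepsins and other matrix-degrading proteases ran the other way from the substrates: 7 of 10 were higher and 1 lower at 8w than at 3d, with a median of 0.74, and from E18 to 8w 7 were higher and 2 lower. Htra3, a secreted serine protease, rose from 7.13 to 24.0 FPKM (1.62 ± 0.18) and already at 3d from 3.12 (0.98, adjusted p = 0.00442), and the lysosomal cathepsins Ctsd and Ctsb rose from 106 to 312 (1.53 ± 0.11) and from 33.4 to 81.2 (1.27 ± 0.10), while Ctsk, a collagen-cutting cathepsin, fell from 6.13 to 2.51 (-1.08 ± 0.21).

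**Figure D5:**
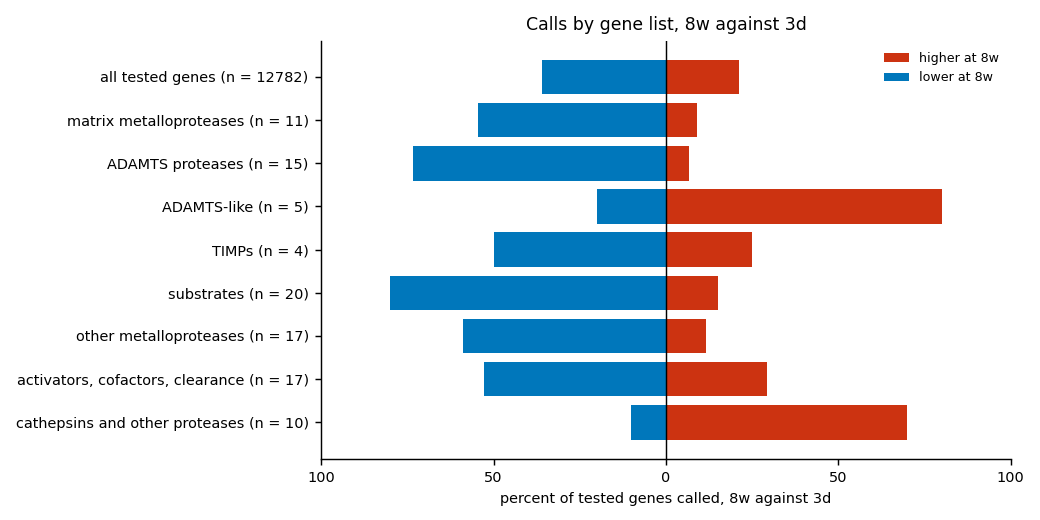
Percent of the tested genes of each family and list called higher (red, to the right) or lower (blue, to the left) at 8w than at 3d, with the number tested beside each name. Over all tested genes 36.0% were lower and 21.1% higher; 16 of 20 substrates and 11 of 15 ADAMTS proteases were lower, and 4 of 5 ADAMTS-like genes and 7 of 10 cathepsins and other proteases were higher.

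Cell type markers moved beside these counts, and their own counts stand beside the same shares of all tested genes. Epicardial markers summed to 49.0 to 54.7 FPKM at E18, 30.8 to 35.6 at 3d and 12.1 to 15.9 at 8w, and 5 of 6 were lower at 8w than at 3d. The 10 fibroblast markers summed to 677 to 740, 572 to 827 and 905 to 1230 FPKM, and 3 were higher and 3 lower at 8w than at 3d; 4 of them, Col1a1, Col3a1, Dcn and Lum, are also substrates above, and Pcolce is in the list of other metalloproteases. Adgre1 among the macrophage markers was not in the table. The part of cell makeup in the course of the proteases and inhibitors was not tested.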

How the data were processed

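Total RNA of 9 mouse heart libraries was sequenced. Reads were trimmed with cutadapt 1.9.1, aligned with HISAT2 2.0.4 to GRCm38 (mm10) and quantified with Cuffdiff, per the submitters' processing notes; neither these notes nor the labels name the annotation release, the strand setting or the circRNA caller. FPKM values and estimated counts per gene were made by the authors, per the file headers, and circRNAs were deposited by the authors as counts of back-splice junction reads; 9 per-sample columns of the circRNA table were not used.

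Rows of 1 gene were summed. The 12782 of 22481 genes that reached 0.5 FPKM on average went into limma-trend (version 3.58.1 under R 4.3.3, two-sided) on log2(FPKM + 1), all libraries in 1 fit with 6 residual degrees of freedom. Estimated counts divided by 1 step per library were whole for 94.2% to 95.1% of low values (within 0.01); these fragments were tested with edgeR 4.0.16 (quasi-likelihood, TMM) and DESeq2 1.42.0 as alternatives. Other alternatives changed the pseudocount, filter, scaling, trend, stages fitted, a replicate block, a minimum fold of 2, or left out libraries. Methods were checked on simulated data. Coordinates are from GENCODE vM21 (GRCm38), promoters from RefSeq (GRCm38.p6).

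Every library is given for genes called in some comparison with a stage mean of at least 5 FPKM and for Mmp2, Mmp9, Mmp14 and the TIMPs; other described genes are given by stage means. From the other gene lists the 2 to 4 largest fold changes that passed, with at least 5 FPKM in the higher stage, are named; 1 gene that this rule would name is not reported here. The members and lists were chosen with earlier results of these data known.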

Additional observations from a re-analysis of the deposited data

How the results depend on the processing

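Of the 57 single calls 30 had a fold of at least 2, the joint removal of the 3 libraries with lung markers kept 51, and 43 were kept under every other alternative in which their gene was tested. Rescaling alone raised the genes higher at 3d than at E18 from 3 to 6 (quantile normalization) and 7 (median centring), and those higher from E18 to 8w from 7 to 12 and 13. The tests on recovered fragments, which change input and model together with the scaling, gave 9 higher and 1 lower at 3d (edgeR and DESeq2), and 12 (DESeq2) and 13 (edgeR) higher from E18 to 8w. With a fold of at least 2 the counts were 1 higher and 1 lower at 3d, and 3 higher and 8 lower from 3d to 8w. Leaving out 1 library gave 3 to 4 higher and 2 to 7 lower at 3d, the 7 without 3d replicate 1; 5 to 7 and 17 to 22 from 3d to 8w; and 6 to 8 and 15 to 17 from E18 to 8w. Without the 3 libraries with lung markers 8 were higher at 3d, and 4 higher from 3d to 8w. Timp2 from E18 to 8w, -0.10 and not called, was called in the other direction with median centring (0.26), edgeR (0.28) and DESeq2 (0.26); the cause of these shifts was not tested. Same-numbered libraries did not deviate together (correlations of -0.118 to 0.0922 over 9 pairs); with a replicate block 53 of the 57 calls were kept, 4 lost and 1 gained, with 3 higher and 3 lower at 3d, 6 and 19 from 3d to 8w, and 7 and 16 from E18 to 8w. Genes resting on 1 to 3 fragments in a library (Mmp3, Mmp9, Adamts14, Timp1) are limited by depth.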
